A study of Mus musculus with 34 samples.

Results

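The 8 genes Srebf1, Srebf2, Insig1, Hmgcs1, Idi1, Fdft1, Sqle and Lss were followed in mouse skeletal muscle that lacked insulin and insulin-like growth factor receptors. They are the sterol regulatory element-binding proteins (SREBPs), their sterol-sensing anchor and 5 enzymes of cholesterol synthesis. They were taken from the count table by Ensembl gene ID, 1 row per gene, and make up 8 of its 46071 genes. All 8 passed the filter on low counts.

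RNA was sequenced from a powdered mixture of quadriceps and gastrocnemius of male mice, in 34 libraries from 8 genotype groups. The muscle knockouts were MIRKO (4 libraries, insulin receptor), MIGF1RKO (5, insulin-like growth factor 1 receptor), MIGIRKO (6, both receptors) and QKO (7, both receptors plus 3 forkhead factors, FoxO1, FoxO3 and FoxO4). Each had floxed littermates of its own colony as controls, 3 IRlox libraries for MIRKO, 4 of IGFRlox for MIGF1RKO, 3 of IRIGFRlox for MIGIRKO and 2 of Qlox for QKO. Ages and treatments were not given in the sources used here. In MIRKO, MIGIRKO and QKO the deletion was driven by Acta1-Cre, which acts in skeletal muscle fibers, so blood vessels, nerve, fat and immune cells in the tissue kept the genes. The design text does not name the Cre of MIGF1RKO. All mice, controls included, were of a mixed background of C57Blk6, C57Blk6J and 129 strains. The Nnt gene was heterozygous in MIGIRKO and IRIGFRlox and mixed in MIRKO, IRlox, QKO and Qlox.

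SREBPs are transcription factors made as precursors in the membrane of the endoplasmic reticulum. When sterols are scarce, the escort protein SCAP carries them to the Golgi, where proteases release the active part, and SREBP-2 (from Srebf2) then raises the genes of cholesterol synthesis and uptake while SREBP-1c (from Srebf1) mainly raises those of fatty acid synthesis. When sterols are plentiful, Insig1 holds SCAP back, and in liver insulin is known to raise Srebf1 transcription and SREBP-1c processing. Skeletal muscle makes cholesterol and its isoprenoid by-products through the same enzymes.

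Total counts ran from 1499025 to 7581198 per library, the lowest in QKO 5. Of the targeted genes, Insr was called lower in MIRKO, MIGIRKO and QKO, and Igf1r, Foxo1 and Foxo4 in QKO, but Foxo3 in QKO (log2 change 0.29, adjusted p = 0.710) and Igf1r in MIGF1RKO (-0.75, adjusted p = 0.103) and in MIGIRKO (0.00, adjusted p = 0.993) were not. Counts here cover the whole gene and all cells of the tissue, so they check a deletion of single exons in fibers only in part. Earlier results of these data placed the libraries labelled MIRKO 4 and MIGIRKO 6 nearer to each other's genotype, so the calls among the 8 genes and the counts of the pathway and marker lists in MIGIRKO are also given without them. Values below are CPM (reads of a gene scaled to a fixed library size) after TMM scaling, a correction for differences in library composition. Its factor averaged 1.23 in MIGIRKO and 0.876 in IRIGFRlox. With library totals in place of that scaling the median log2 change of all genes in MIGIRKO was 0.53 instead of 0.04, and the calls were 6314 higher and 688 lower instead of 2321 and 2282. The 8 muscle fiber markers together took 58462 to 97174 CPM in MIGIRKO and 166013 to 182271 in IRIGFRlox, and none was at 0 in any library. In bulk tissue, fewer cells of a type and less RNA per cell cannot be told apart.

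Positions are from GRCm38. The regulators are Srebf1 (ENSMUSG00000020538, chr11:60199089-60222581, minus strand), Srebf2 (ENSMUSG00000022463, chr15:82147181-82205379, plus strand) and Insig1 (ENSMUSG00000045294, chr5:28071363-28078662, plus strand). The enzymes follow in pathway order, each catalysing a later step than the one before. They are Hmgcs1 (ENSMUSG00000093930, chr13:119690379-119708260, plus strand), Idi1 (ENSMUSG00000058258, chr13:8885501-8892451, plus strand), Fdft1 (ENSMUSG00000021273, chr14:63145150-63179578, minus strand), Sqle (ENSMUSG00000022351, chr15:59315077-59331192, plus strand) and Lss (ENSMUSG00000033105, chr10:76531588-76557138, plus strand). Exons of 5 of the 8 genes overlap a gene on the opposite strand, from 109 bases of Srebf1 shared with Rai1 to 774 bases of Fdft1 shared with Ctsb. The latter is 18.3% of the exon length of Fdft1. The libraries were stranded, but the strand setting of the counting was not given in the sources used here, and without it reads from such stretches cannot be told apart.

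The sequences upstream of Hmgcs1, Insig1 and Srebf2 are shown because Hmgcs1 alone of the windows read held a sterol element, and because Srebf2 and Insig1 were called higher in MIGIRKO. The sequences are from RefSeq, GRCm38.p6, on the plus strand, cut at the first annotated transcription start (RefSeq or GENCODE). Positions are counted back from RefSeq's start site. Capitals mark a sterol regulatory element (TCACNCCAC, the site SREBPs bind), an E-box (CACGTG) or a CCAAT box (read as ATTGG on the opposite strand), each searched on both strands. The windows are chr13:119690101-119690350 for Hmgcs1, chr5:28071162-28071362 for Insig1 and chr15:82147019-82147180 for Srebf2.
Hmgcs1: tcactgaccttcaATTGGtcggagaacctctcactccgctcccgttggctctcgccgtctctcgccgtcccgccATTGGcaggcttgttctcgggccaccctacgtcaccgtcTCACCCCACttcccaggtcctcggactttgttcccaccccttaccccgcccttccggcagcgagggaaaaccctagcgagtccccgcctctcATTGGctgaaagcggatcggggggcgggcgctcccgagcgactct
Insig1: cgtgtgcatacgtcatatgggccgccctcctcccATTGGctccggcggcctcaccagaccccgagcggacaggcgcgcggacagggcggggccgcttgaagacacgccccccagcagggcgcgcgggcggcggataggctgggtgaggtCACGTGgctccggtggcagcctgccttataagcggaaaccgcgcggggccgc
Srebf2: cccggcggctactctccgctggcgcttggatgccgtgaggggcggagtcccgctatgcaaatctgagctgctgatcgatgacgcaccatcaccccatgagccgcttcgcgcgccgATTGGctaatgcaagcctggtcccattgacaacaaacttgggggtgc
In the Hmgcs1 window the sterol element lies at -137 to -129 and CCAAT boxes stand on both sides of it. The Insig1 window holds an E-box at -101 to -96. Of the 8 genes, 6 had an entry in the promoter table (not Fdft1 or Sqle), each of 250 bases before and 50 after the start. The sterol element matched Hmgcs1 alone of these 6, and 1.24% of all 32851 windows in the table. The E-box matched Insig1 alone, and 7.15% of all windows. All 6 genes held a CCAAT box in at least 1 window, where 37.4% of all windows did. None held the FoxO element GTAAACA, which 3.65% of all windows held. These are matches of fixed letters in a short window, and a site that differs from them is not counted.

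Per kilobase of exon, Srebf1 had the highest level of the 8 genes, with 14.4 ± 3.52 CPM per kb (mean ± SD over the 34 libraries). Hmgcs1 followed with 12.5 ± 2.39 and Fdft1 with 10.3 ± 3.32 CPM per kb. Insig1 had 5.84 ± 2.22 and Srebf2 4.49 ± 1.45 CPM per kb. The later enzymes Sqle (0.901 ± 0.344) and Lss (0.762 ± 0.177) and the isomerase Idi1 (0.365 ± 0.207) were the lowest. This order depends on the annotation, because all annotated exons count, 10787 bases for Lss and 5546 for Sqle. In CPM the median of Lss (8.14) lay above that of Sqle (4.70). Counts of Idi1 ran from 0 to 13 per library, so that gene could be read only coarsely at this depth.

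Knockouts were set beside their colony's floxed mice to ask which of the 8 genes differ when 1 or both receptors, or the FoxO factors too, are missing in muscle. Calls rest on edgeR's quasi-likelihood test with Benjamini-Hochberg adjustment over 13646 genes, with 0.05 as the limit for the adjusted p. The labels do not say how each mouse relates to the others, so p-values measure the spread between these libraries. In MIGIRKO, Srebf2 and Insig1 rose and Fdft1 fell. That is 3 of 8, where 33.7% of all tested genes were called, so the count does not set these genes apart from the rest. By direction it was 2 higher (background 17%) and 1 lower (16.7%), and the median change of the 8 was 0.25 beside 0.04 over all genes. In QKO, Fdft1 alone of the 8 was called, lower, where 0.506% of all tested genes were called (0.454% lower and 0.0513% higher). None of the 8 was called in MIRKO (background 1.25%) or in MIGF1RKO (background 0.616%). At an unadjusted p under 0.05 there were 2 in MIRKO (Srebf2 and Fdft1) and 2 in MIGF1RKO (Insig1 and Lss), and DESeq2 and limma-voom also called none there. The share of all tested genes under that unadjusted limit was not counted, so such counts, here and below, have no background. In ranges, 2 of the 8 lay wholly above their controls in MIGIRKO (15.2% of all genes did) and none wholly below (14.8%), and 1 lay wholly above in MIGF1RKO (2.45%) and none below (2.69%). In QKO 1 lay wholly below (5.86%) and none above (3.91%), and in MIRKO none lay above (7.88%) or below (8.23%). Srebf1, Hmgcs1, Idi1, Sqle and Lss were called in none of these 4 comparisons.

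**Figure D1:**
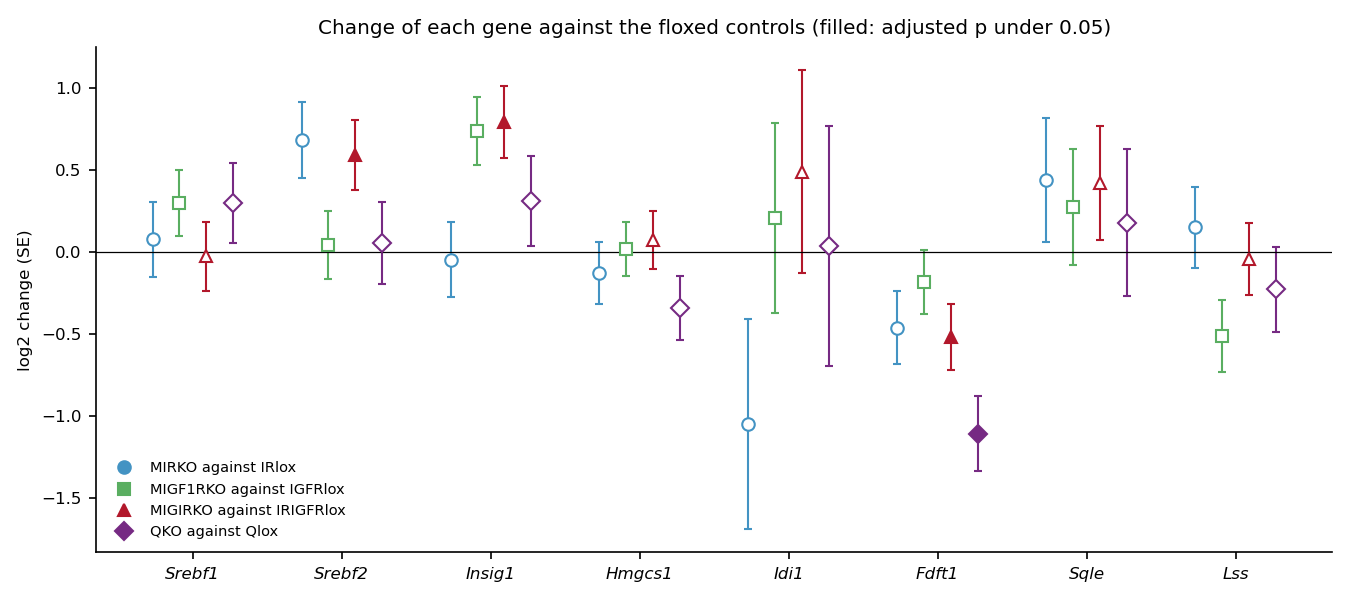
Log2 change of each of the 8 genes in the 4 knockout groups against their own floxed controls, with SE bars; filled symbols have an adjusted p under 0.05. Srebf2 and Insig1 lie above 0 and Fdft1 below 0 in MIGIRKO, and Fdft1 has its largest fall, 1.11 on the log2 scale, in QKO.

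Srebf1 encodes SREBP-1, the lipogenic member of the family. It was 61.3, 69.5 and 50.4 CPM in IRlox and 51.3, 63.1, 61.9 and 77.9 in MIRKO. It was 70.9, 117, 62.9 and 63.1 CPM in IGFRlox and 96.6, 98.2, 102, 104 and 82.2 in MIGF1RKO. The 5 MIGF1RKO libraries lay close together and above 3 of the 4 IGFRlox libraries, but IGFRlox 2 lay above them all. Srebf1 was 87.6, 90.8 and 72.8 CPM in IRIGFRlox, and in MIGIRKO its lowest, median and highest values were 49.5, 78.1 and 121. It was 72.7 and 72.3 CPM in Qlox, and 67.6, 82.7 and 116 (lowest, median, highest) in QKO. All 4 knockouts overlapped their controls. The log2 changes were 0.08 ± 0.23 (SE) in MIRKO, 0.30 ± 0.20 in MIGF1RKO, -0.02 ± 0.21 in MIGIRKO and 0.30 ± 0.25 in QKO, with adjusted p of 0.891, 0.667, 0.947 and 0.665.

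Srebf2 encodes SREBP-2, the main activator of cholesterol synthesis genes. It was 34.1, 32.9 and 27.1 CPM in IRIGFRlox, and 37.1, 47.4 and 57.1 (lowest, median, highest) in MIGIRKO. All 6 MIGIRKO libraries lay above all 3 controls. The log2 change was 0.59 ± 0.21, or 1.51-fold (adjusted p = 0.0301). It was 22.6, 19.5 and 29.8 CPM in IRlox and 30.2, 29.5, 49.0 and 45.8 in MIRKO. MIRKO 3 and the library labelled MIRKO 4 were high, and MIRKO 1 and 2 lay beside the highest control. The change in MIRKO was 0.68 ± 0.23, which did not pass (adjusted p = 0.125). It was 27.2, 30.6, 27.1 and 25.1 CPM in IGFRlox and 25.5, 28.9, 33.9, 30.9 and 22.5 in MIGF1RKO, which overlapped. It was 29.8 and 22.9 CPM in Qlox, and 19.6, 23.9 and 45.0 (lowest, median, highest) in QKO. The highest QKO value was that of QKO 6, and the next was 32.0. The changes in MIGF1RKO and QKO were 0.04 ± 0.21 and 0.06 ± 0.25 (adjusted p = 0.980 and 0.956). The call in MIGIRKO was lost with a term for the 6 stretches of adjoining library numbers in the model (0.48, adjusted p = 0.0732) and with both doubtful libraries left out (0.53, adjusted p = 0.0538). It was also lost without IRIGFRlox 1, 2 or 3, MIGIRKO 5 or MIGIRKO 6 alone, at adjusted p of 0.0557 to 0.130.

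Insig1 encodes the sterol-sensing anchor that holds SCAP in the endoplasmic reticulum, and is itself a target of SREBPs. It was 15.7, 12.4 and 14.1 CPM in IRIGFRlox, and 17.4, 21.1 and 43.1 (lowest, median, highest) in MIGIRKO. No library of one group reached the range of the other. The log2 change was 0.79 ± 0.22, or 1.73-fold (adjusted p = 0.00557). The value of 43.1 CPM was that of MIGIRKO 4, and without that library the change was 0.55 (adjusted p = 0.0171). Without both doubtful libraries it was 0.84 (adjusted p = 0.00471). It was 14.4, 14.7, 17.5 and 12.7 CPM in IGFRlox and 20.1, 25.9, 26.3, 24.8 and 26.9 in MIGF1RKO. Here too the groups did not overlap. The change in MIGF1RKO was 0.74 ± 0.21 and did not pass the threshold over all genes (adjusted p = 0.103). With the 2 compared groups alone in the fit it passed (0.75, adjusted p = 0.0219). Insig1 was 20.4, 19.8 and 20.9 CPM in IRlox and 19.6, 19.3, 21.1 and 18.9 in MIRKO, 7 libraries within a narrow band (log2 change -0.05 ± 0.23, adjusted p = 0.946). It was 9.17 and 10.3 CPM in Qlox, and 6.62, 12.0 and 15.7 (lowest, median, highest) in QKO. These overlapped, with a change of 0.31 ± 0.27 (adjusted p = 0.693).

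**Figure D2:**
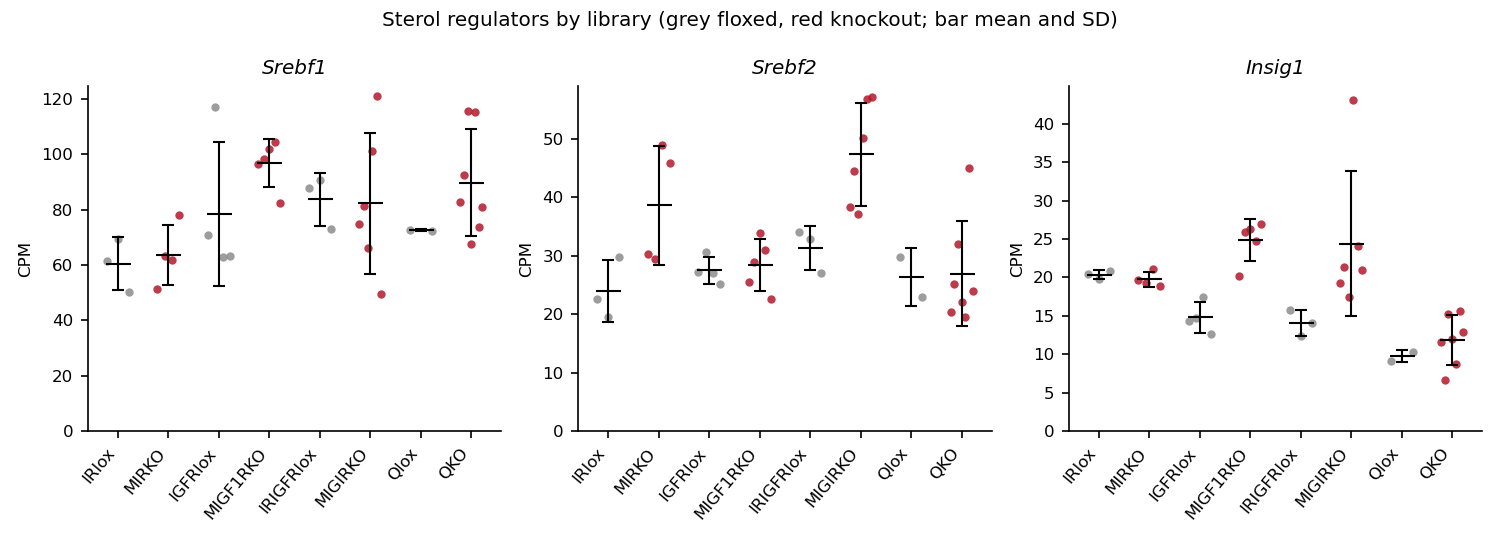
CPM of Srebf1, Srebf2 and Insig1 in each of the 34 libraries by group, floxed in grey and knockout in red, with bars for the mean and SD. All 6 MIGIRKO libraries lie above the 3 IRIGFRlox libraries for Srebf2 and for Insig1, and each knockout overlaps its controls for Srebf1.

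The order of the group means differed between the regulators. Srebf2 ran from 24.0 ± 5.30 CPM (SD) in IRlox to 47.4 ± 8.80 in MIGIRKO, and Insig1 from 9.74 ± 0.80 in Qlox to 24.8 ± 2.73 in MIGF1RKO. Srebf1 ran from 60.4 ± 9.60 CPM in IRlox to 96.7 ± 8.65 in MIGF1RKO. For all 8 genes, neighbouring groups in this order overlapped, with 1 exception. Between IGFRlox (14.8 ± 1.99 CPM) and MIRKO (19.7 ± 0.98 CPM) the ranges of Insig1 did not meet, though these are groups of different colonies. This pair was met by sorting the group means, and the share of all genes with such a gap was not counted. Among the 4 floxed groups none of the 8 genes was called, where 0.264% of all tested genes were. Insig1 (unadjusted p = 0.0104, adjusted p = 0.279) and Hmgcs1 (0.0382 and 0.415) had the lowest p-values, the only 2 under 0.05, and DESeq2 and limma-voom called none of the 8. 

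Hmgcs1 encodes the synthase that forms hydroxymethylglutaryl-CoA at the entry to the pathway. It was 84.9 and 67.3 CPM in Qlox, and 45.7, 65.0 and 68.9 (lowest, median, highest) in QKO. QKO 3 and QKO 6 reached just above the lower of the 2 controls, and the other 5 QKO libraries lay below both. The change was -0.34 ± 0.20 (adjusted p = 0.509). It was 46.6, 42.2 and 53.6 CPM in IRIGFRlox, and 36.9, 48.8 and 68.0 in MIGIRKO, a change of 0.07 ± 0.17 (adjusted p = 0.774). In the other pairs Hmgcs1 was 57.6 ± 9.77 CPM in IRlox and 52.8 ± 9.63 in MIRKO, and 60.8 ± 8.07 in IGFRlox and 61.7 ± 6.62 in MIGF1RKO. All of these ranges overlapped. With library totals only, Hmgcs1 was called higher in MIGIRKO (0.57, adjusted p = 0.0188), close to the shift of all genes under that scaling.

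Idi1 encodes the isomerase of isopentenyl diphosphate, the building block of the sterol chain. Its group means lay between 0.844 ± 0.076 CPM in IRIGFRlox and 1.99 ± 0.909 in IRlox. In MIRKO 1 it had 0 counts of 4092536, which allows up to 0.694 CPM, and the other 3 MIRKO libraries had 1.97, 0.783 and 0.886 CPM. IRlox had 1.61, 3.02 and 1.33 CPM, and the ranges overlapped. The log2 change in MIRKO was -1.05 ± 0.64 (adjusted p = 0.400) and those of the other 3 knockouts lay between 0.04 and 0.49. With SEs of 0.58 to 0.73, changes of the size seen in Srebf2 or Insig1 were not detectable in Idi1 at this depth.

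Fdft1 encodes squalene synthase, the first enzyme committed to sterols, which joins 2 farnesyl diphosphates to squalene. It was 56.4 and 52.4 CPM in Qlox. The 7 QKO libraries had 26.4, 32.4, 26.4, 26.7, 29.7, 17.8 and 19.6 CPM, all below both controls. The log2 change was -1.11 ± 0.23, or 2.15-fold lower (adjusted p = 0.0113). In MIGIRKO it was 28.2, 37.2 and 51.8 CPM (lowest, median, highest), against 52.0, 62.1 and 47.8 in IRIGFRlox. MIGIRKO 1 reached into the control range, and the other 5 libraries lay below it. The change in MIGIRKO was -0.52 ± 0.20, or 1.43-fold lower (adjusted p = 0.0468). In MIRKO it was 54.7, 48.2, 32.6 and 27.9 CPM, against 60.2, 59.6 and 48.4 in IRlox. MIRKO 3 and the library labelled MIRKO 4 were low, the same 2 libraries in which Srebf2 was high, and the change was -0.46 ± 0.22 (adjusted p = 0.284). In IGFRlox it was 78.1, 49.9, 42.1 and 53.9 CPM and in MIGF1RKO 58.9, 56.9, 46.0, 43.6 and 40.1, a change of -0.18 ± 0.20 (adjusted p = 0.845).

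The call of Fdft1 in QKO was kept in 16 of 18 alternatives, with changes of -1.31 to -1.03 over all of them. It was lost without Qlox 1 (adjusted p = 0.318) or Qlox 2 (adjusted p = 0.152), where the single control left is assumed to vary like the other groups. The call in MIGIRKO was lost in 10 of 19 alternatives, among them DESeq2 (-0.50, adjusted p = 0.0534) and leaving out IRIGFRlox 1, 2 or 3 or MIGIRKO 2, 3, 4 or 5 (adjusted p of 0.0560 to 0.201). It was kept without both doubtful libraries (-0.54, adjusted p = 0.0367). With library totals only its change there was -0.03 (adjusted p = 0.905), while that in QKO was -1.06 (adjusted p = 0.00303). Ctsb, which shares exon sequence with Fdft1 on the other strand, was 485 CPM in MIGIRKO against 336 in IRIGFRlox and 482 in QKO against 331 in Qlox (log2 changes 0.53 and 0.55, adjusted p = 0.253 and 0.629).

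Sqle encodes squalene epoxidase, a rate-setting step after squalene. It was 3.51, 3.44 and 7.26 CPM in IRIGFRlox, and 4.77, 6.07 and 8.06 (lowest, median, highest) in MIGIRKO. It was 4.03, 6.05 and 4.64 CPM in IRlox and 6.70, 2.36, 10.2 and 7.09 in MIRKO. It was 4.59 and 2.98 CPM in Qlox, and 0.725, 3.83 and 7.09 in QKO, where the lowest is 1 count in the shallowest library. It was 4.23 ± 1.23 CPM in IGFRlox and 5.02 ± 1.20 in MIGF1RKO. Every pair overlapped. The 4 changes were positive, from 0.18 ± 0.45 in QKO to 0.44 ± 0.38 in MIRKO, and did not pass (adjusted p of 0.366 to 0.913). With library totals only, Sqle was called higher in MIGIRKO (0.91, adjusted p = 0.0453).

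Lss encodes lanosterol synthase, which closes the sterol rings. It was 7.78, 10.2, 10.3 and 9.96 CPM in IGFRlox and 6.62, 5.69, 8.16, 7.18 and 6.14 in MIGF1RKO. IGFRlox 1 lay within the MIGF1RKO range and the other 3 controls above it. The change was -0.51 ± 0.22 (adjusted p = 0.380). Lss was 8.67 ± 1.74 CPM in IRIGFRlox and 8.41 ± 1.89 in MIGIRKO, 9.89 ± 0.38 in Qlox and 8.56 ± 2.79 in QKO, and 6.87 ± 1.10 in IRlox and 7.65 ± 1.61 in MIRKO. All of these overlapped, with changes of -0.23 to 0.15 (adjusted p of 0.775 to 0.909).

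**Figure D3:**
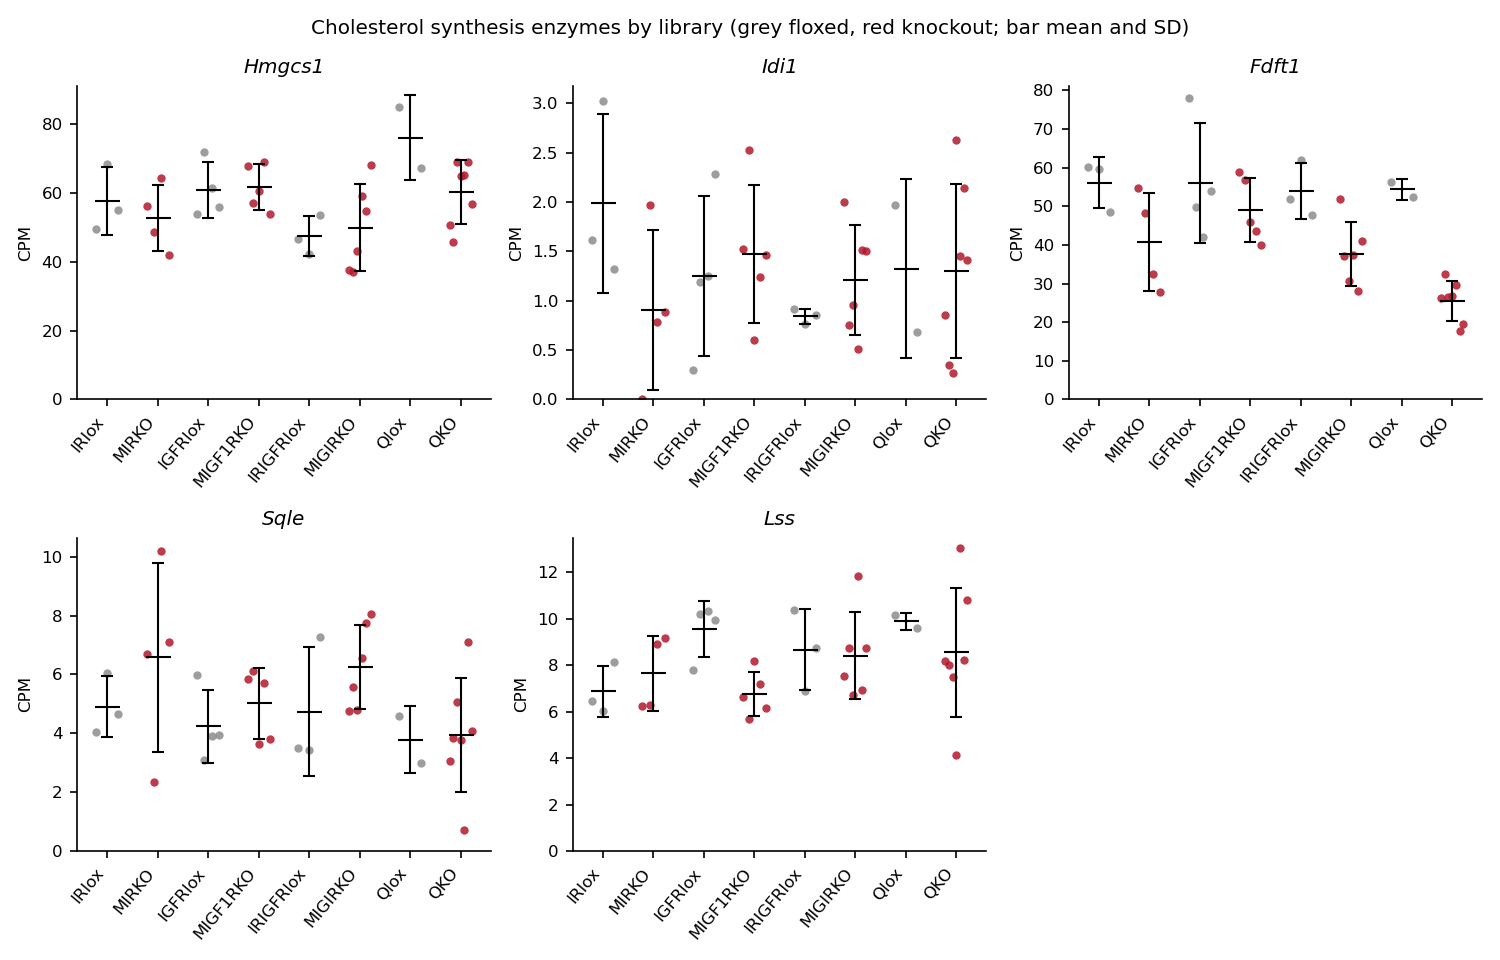
CPM of Hmgcs1, Idi1, Fdft1, Sqle and Lss in each of the 34 libraries by group, floxed in grey and knockout in red, with bars for the mean and SD. The 7 QKO libraries of Fdft1, 17.8 to 32.4 CPM, lie below both Qlox libraries, and the other 4 enzymes overlap in every knockout and its controls.

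The changes in QKO and in MIGIRKO were then compared, each taken against its own controls, to ask whether the added loss of the FoxO factors goes with another response. None of the 8 genes was called in this difference, where 5.76% of all tested genes were (3.61% higher and 2.15% lower), and none had an unadjusted p under 0.05 or was called by DESeq2 or limma-voom. The largest differences (QKO change minus MIGIRKO change) were -0.59 ± 0.31 for Fdft1 (adjusted p = 0.280), -0.53 ± 0.32 for Srebf2 (0.353) and -0.48 ± 0.35 for Insig1 (0.443). Fdft1 was called in this difference in the model with stretches of library numbers (-0.92, adjusted p = 0.0295) and under scaling by library totals (-1.03, adjusted p = 0.0143). A joint control of all floxed libraries drops out of this difference, so it gives no further test of it. No gene at all was called when the MIRKO change was subtracted from that of MIGIRKO, a background of 0% with edgeR. Leaving out the library labelled MIRKO 4, the library labelled MIGIRKO 6 or both raised that to 145, 13 and 457 genes, still with none of the 8. Of the 8, Insig1 had an unadjusted p under 0.05 there (0.84 ± 0.31, adjusted p = 0.337), and DESeq2, which called 8 genes in all, and limma-voom, which called none, called none of the members.

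Set directly against MIGIRKO, QKO libraries had lower Insig1, Srebf2 and Fdft1. That is 3 of 8, where 30.2% of all tested genes were called (14% lower and 16.2% higher). These 2 genotypes come from separate colonies, and the comparison uses the same knockout libraries as the differences above. Insig1 was 6.62 to 15.7 CPM in QKO and 17.4 to 43.1 in MIGIRKO with no overlap. Of all genes 2.53% lay wholly below and 4.88% wholly above in this way. It was a log2 difference of -1.01 ± 0.17 (adjusted p = 3.6e-05). Srebf2 differed by -0.80 ± 0.17 (adjusted p = 0.000420) and Fdft1 by -0.58 ± 0.17 (adjusted p = 0.00875), both with overlap. These 3 calls were kept in all 22 alternatives. Fdft1 was thus low in both genotypes against their controls and lowest in QKO, whereas Srebf2 averaged 26.9 CPM in QKO and 26.4 in Qlox, and Insig1 11.8 and 9.74 CPM.

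The other 15 enzymes from acetyl-CoA to cholesterol were read from a list of the whole pathway. All 15 passed the filter, and in MIGIRKO 2 rose and 1 fell. Acat2, which makes acetoacetyl-CoA ahead of Hmgcs1, rose from 5.40 to 10.7 CPM, a log2 change of 0.99 ± 0.23 (adjusted p = 0.00146). Ebp, a sterol isomerase late in the pathway, rose by 0.64 ± 0.24 (adjusted p = 0.0395). Hsd17b7, a ketosteroid reductase of the demethylation steps, went the other way by -0.96 ± 0.26 (adjusted p = 0.00479). Over all 20 enzymes 2 rose and 2 fell, a smaller share than the 33.7% of all tested genes called, with a median change of 0.07 beside 0.04. Without both doubtful libraries these counts were again 2 and 2. With library totals only, 10 rose and 0 fell, with a median of 0.56 beside 0.53 over all genes, of which 6314 of 13646 were then called higher.

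In QKO, Fdft1 was the only 1 of the 20 enzymes called, and the median change was -0.03 beside 0.04 over all genes. Hsd17b7 had the lowest p among the other 15 (-0.83 ± 0.30, adjusted p = 0.267). At an unadjusted p under 0.05 there was 1 of these 15, and DESeq2 and limma-voom called none of them. In MIRKO none of the 20 enzymes was called (with Fdft1 alone at an unadjusted p under 0.05, and none with DESeq2 or limma-voom). In MIGF1RKO none was called by edgeR, DESeq2 or limma-voom, and Fdps (1.05 ± 0.39, adjusted p = 0.265) and Lss had an unadjusted p under 0.05. Against MIGIRKO, QKO was lower in 3 of the 20, among them Fdft1 and Acat2 (-0.75 ± 0.18, adjusted p = 0.00166), and higher in 0. Of all tested genes 14% were called lower there and 16.2% higher, so the count of lower enzymes does not set the list apart.

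**Figure D4:**
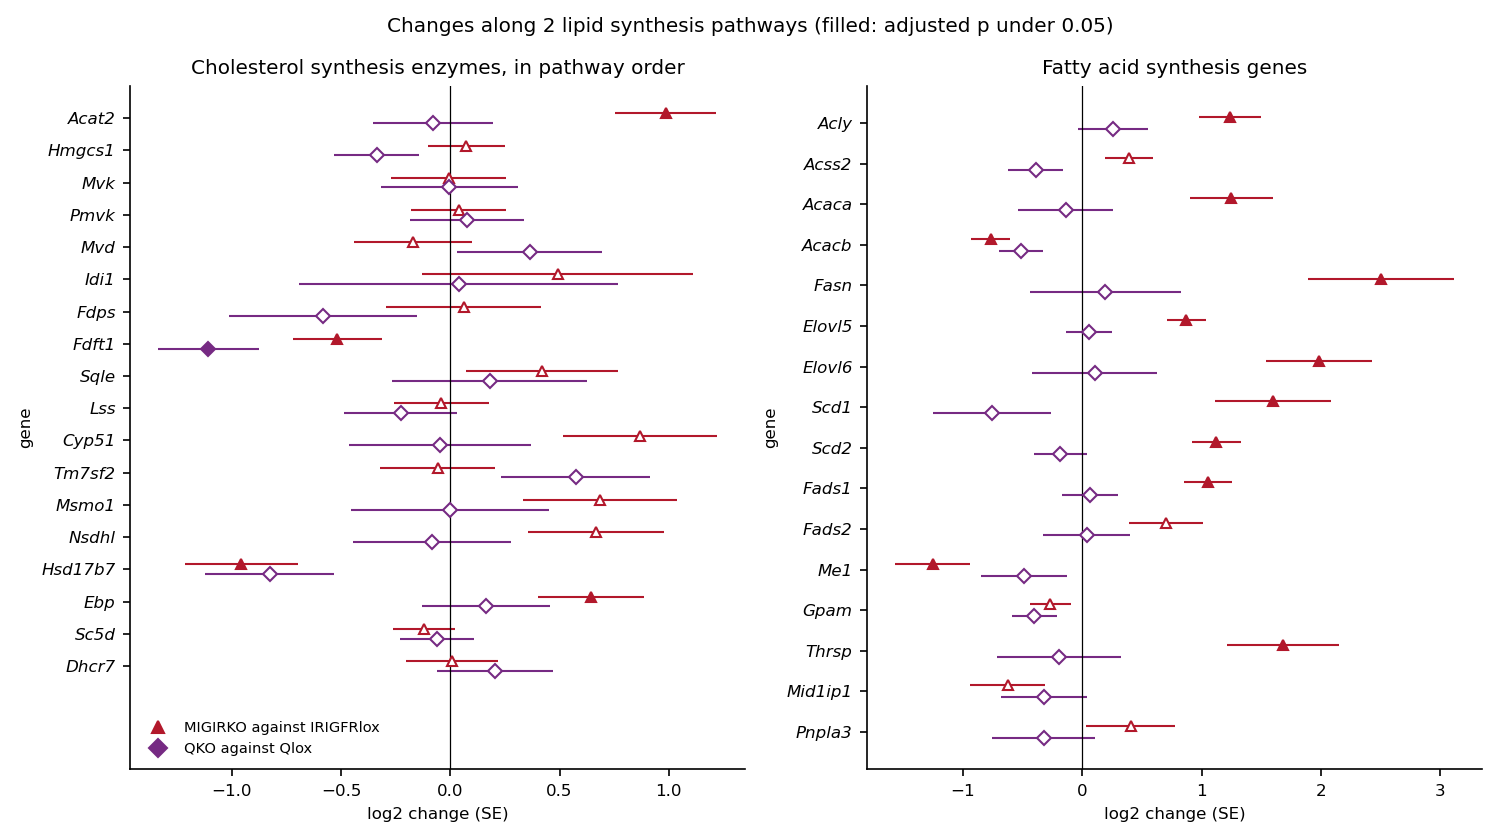
Log2 change with SE of 18 of the 20 cholesterol synthesis enzymes in pathway order (left) and of 16 fatty acid synthesis genes (right), for MIGIRKO (red) and QKO (purple) against their own controls; filled symbols have an adjusted p under 0.05. Calls in MIGIRKO point both ways among the cholesterol enzymes, 2 higher and 2 lower, and mostly up among the fatty acid genes, 9 higher and 2 lower.

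Of 13 tested genes of SREBP processing and sterol uptake, 2 rose and 3 fell in MIGIRKO, with a median of -0.02. That is close to the background of 33.7% of genes called and does not set the list apart. Under totals alone, 5 rose and 1 fell, and without both doubtful libraries 1 rose and 2 fell. Npc1, which exports cholesterol from lysosomes, fell by 1.01 ± 0.21 (adjusted p = 0.000378), while its soluble partner Npc2 rose by 0.99 ± 0.27 (adjusted p = 0.00506). Erlin2 rose by 0.61 ± 0.21 (adjusted p = 0.0281). Rnf139 was also called lower (-0.37 ± 0.14, adjusted p = 0.0454), named here after its values were seen.

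In QKO, Npc1 was the 1 gene of these 13 that was called. It was 43.0, 59.0 and 99.4 CPM (lowest, median, highest) in QKO and 150 and 172 in Qlox, a fall of 1.28 ± 0.23 on the log2 scale (adjusted p = 0.00187). Npc1 and Fdft1 were therefore called lower in both genotypes that lack both receptors. The call of Fdft1 in MIGIRKO was lost in 10 of 19 alternatives. In MIRKO none of the 13 was called (1 at an unadjusted p under 0.05, none with DESeq2 or limma-voom), and the log2 change of Npc1 was -0.04 ± 0.23. Its change in MIGIRKO minus that in MIRKO, -0.97 ± 0.31, did not pass (adjusted p = 0.270). Fdft1, in contrast, was already at -0.46 ± 0.22 in MIRKO, which did not pass either (adjusted p = 0.284). Its change in MIGIRKO minus that in MIRKO was -0.06 ± 0.30 (adjusted p = 0.979). In MIGF1RKO none of the 13 was called by edgeR, 4 had an unadjusted p under 0.05, DESeq2 called 1 and limma-voom none.

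Targets of SREBP-1 in fatty acid synthesis mostly rose in MIGIRKO, where Srebf1 itself was at -0.02. Of 16 tested, 9 rose and 2 fell, with a median of 0.96 beside 0.04 over all genes, of which 17% were called higher and 16.7% lower. Scaled by totals alone, 11 rose and 1 fell, where 6314 of 13646 genes were called higher, and without both doubtful libraries 10 rose and 2 fell. Scd2, a stearoyl-CoA desaturase, rose by 1.12 ± 0.20 (adjusted p = 9.9e-05). Fads1, a desaturase of polyunsaturated fatty acids, rose by 1.05 ± 0.20, Elovl5, an elongase, by 0.87 ± 0.16, and Acly, which makes cytosolic acetyl-CoA, by 1.24 ± 0.26. The 2 that fell were Acacb (-0.77 ± 0.16) and Me1 (-1.25 ± 0.32), named here after their values were seen. In QKO none of the 16 was called, 2 had an unadjusted p under 0.05 and DESeq2 and limma-voom called none. The QKO change minus the MIGIRKO change was itself called, lower in QKO, for 4 of the 16. Of all tested genes 2.15% were called lower in that difference and 3.61% higher. The 4 were Scd2 (-1.31 ± 0.30), Scd1 (-2.35 ± 0.68), Elovl5 (-0.82 ± 0.25) and Fads1 (-0.99 ± 0.30), with adjusted p of 0.00954 to 0.0465. DESeq2 called 4 of the 16 in it and limma-voom 3. In MIGF1RKO only Scd2 was called, higher by 0.83 ± 0.19 (adjusted p = 0.0291), and in MIRKO none was (3 at an unadjusted p under 0.05, none with DESeq2 or limma-voom).

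A list of the liver X receptors, their partner receptor and genes of sterol efflux and esterification was read as well. In MIGIRKO 3 of 9 rose, namely Soat1, which esterifies cholesterol (2.09 ± 0.57, adjusted p = 0.00585), and the exporters Abcg1 (1.76 ± 0.57, adjusted p = 0.0177) and Abca1 (0.83 ± 0.26, adjusted p = 0.0129). Rxra, the partner receptor, fell by 0.98 ± 0.18 (adjusted p = 9.3e-05). The median was 0.13. These 4 calls among 9 genes, 3 and 1 also without both doubtful libraries, stand beside a background of 33.7% of genes called (17% higher), and the count does not set the list apart. In QKO, MIRKO and MIGF1RKO none of the 9 was called by edgeR, DESeq2 or limma-voom, with 3, 1 and 0 at an unadjusted p under 0.05.

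Markers of other cell types moved with these results in MIGIRKO. The number called higher was 8 of 9 for fat cells, 8 of 10 for Schwann cells and myelin, 8 of 9 for macrophages and immune cells, 4 of 6 for fibroblasts and 0 of 5 for endothelium, and 4 of 8 muscle fiber markers were called lower. Of all tested genes 17% were called higher and 16.7% lower. The fiber markers were 2 higher and 4 lower under scaling by totals, where 6314 of 13646 genes were called higher and 688 lower. Without both doubtful libraries the counts were the same, except 7 of 9 for immune cells and 1 of 5 lower for endothelium. Summed immune markers were 374 to 1241 CPM in MIGIRKO and 122 to 171 in IRIGFRlox, and fat markers 621 to 1964 and 415 to 790 CPM. None of the markers of these 6 lists was at 0 in those 2 groups. In the QKO change minus the MIGIRKO change, 6 of 9 fat cell (median -3.07), 7 of 10 Schwann cell (-2.06) and 1 of 6 fibroblast markers were called lower. There 4 of 8 fiber markers were called higher (median 1.08), and no immune or endothelial marker was called. Of all tested genes 2.15% were called lower in that difference and 3.61% higher. The part of these markers in the changes of Srebf2, Insig1, Fdft1 and the fatty acid genes, and in that difference, was not tested.

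Some libraries that stood apart in the 8 genes also differed in fiber markers, without a single direction. MIRKO 3 and the library labelled MIRKO 4, high in Srebf2 and low in Fdft1, had 91124 and 78693 CPM of fiber markers, and MIRKO 1 and 2 had 133447 and 122765. MIGIRKO 4, highest in Insig1, had the lowest fiber sum of all 34 libraries, 58462 CPM. The library labelled MIGIRKO 6, highest of all 34 in Srebf2 (57.1 CPM), had 92894 CPM of fiber markers, above its group median of 88521. IGFRlox 2, highest of its group in Srebf1, and IGFRlox 1, lowest of its group in Lss, had 129287 and 178044 CPM. Those were the lowest and the highest fiber sums of IGFRlox. QKO 6, highest of QKO in Srebf2 and Insig1 and lowest in Fdft1, had the lowest fiber sum of its group, 104968 CPM, and the highest sum of immune markers, 2728 CPM, where the other 6 QKO libraries had 205 to 592.

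The fall of Fdft1 in QKO was set against the same markers. Fiber markers summed to 104968 to 192021 CPM in QKO and 153970 to 160577 in Qlox, and no marker of the 6 lists was called in QKO by edgeR, DESeq2 or limma-voom. At an unadjusted p under 0.05, a limit without a counted background, there were 6 of 10 Schwann cell, 5 of 9 immune, 2 of 9 fat cell and none of the other markers. The medians were -1.03, 1.85 and -0.54 for these 3 lists, and 0.14 for fiber markers. QKO 6 and 7, with fiber sums of 104968 and 138049 CPM below those of Qlox, had the lowest Fdft1, 17.8 and 19.6 CPM. The other 5, with 159395 to 192021 CPM of fiber markers, had 26.4 to 32.4 CPM of Fdft1. Over all 34 libraries, with group means taken away, log2 CPM of Fdft1 went with the log2 fiber sum at r = 0.75. Srebf2 and Insig1 went against it at r = -0.54 each. With group means kept in, r with the fiber sum was 0.34 for Fdft1, -0.80 for Srebf2 and -0.59 for Insig1. The immune sum gave r of 0.54 for Srebf2, 0.38 for Insig1 and -0.33 for Fdft1 with group means taken away. For the same genes in that order the fat cell sum gave -0.39, -0.19 and 0.24. Their r with the Schwann cell, fibroblast and endothelial sums lay between -0.08 and 0.20. These points share depth and scaling, and the values are descriptions. Without QKO 6 the log2 change of Fdft1 in QKO was -1.03 (adjusted p = 0.0249). The part of fiber, Schwann cell, fat and immune markers in it was not tested.

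**Figure D5:**
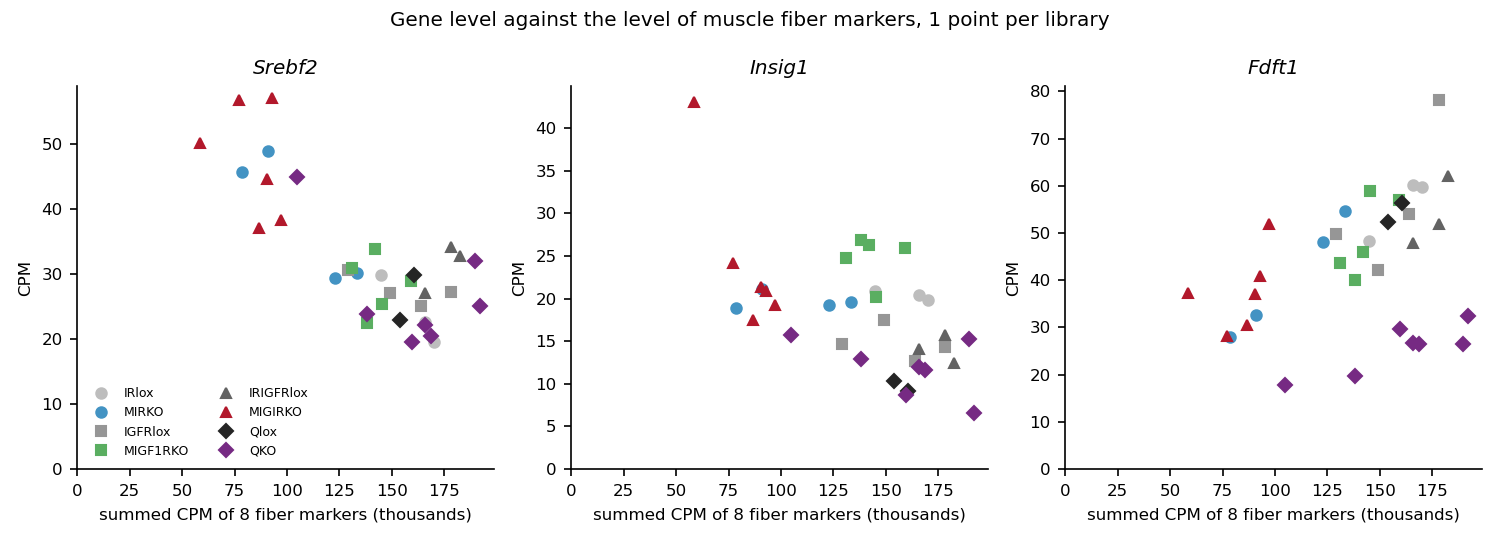
CPM of Srebf2, Insig1 and Fdft1 (vertical axes) against the summed CPM of 8 muscle fiber markers (horizontal axes, labelled in kilo-CPM), 1 point per library, coloured by group. MIGIRKO libraries stand at low fiber sums with high Srebf2, while QKO libraries stand at fiber sums of 104968 to 192021 CPM with low Fdft1.

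The genes most like the mean of the 5 enzymes were found by Pearson correlation of log2 CPM, over 34 libraries and among 12346 genes. Between pairs of the 5 enzymes r ran only from -0.23 to 0.19, and from -0.30 to 0.31 with group means taken away. Low counts can themselves lower r, and Idi1 had 0 to 13 and Sqle 1 to 65 counts per library. The mean of the 5 was therefore not read as a shared pattern. The genes most like this mean were Ermp1 (r = 0.69), Zfp994 (0.69), Hdac9 (0.66), Krr1 (0.63) and Phactr2 (0.62). After group means were taken away they were Zfp994 (0.77), Gxylt1, Tmem165, Wrn and Haus3 (0.71 to 0.72), so Zfp994 alone stood in both. None of these is a cholesterol synthesis gene. Those most like Srebf1 were Adcy2 (0.72), Trpm4 (0.70), Aasdh (0.61), Ybey (0.60) and 2810410L24Rik (0.60), and with group means taken away they included Lrp4 (0.72), Smoc2 (0.71), Map3k4 (0.71) and Mepce (0.69). The points share groups and depth, and these are descriptions.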

How the data were processed

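The authors deposited raw read counts per Ensembl gene for 34 libraries (whole numbers, not normalized). Per the submitters' processing notes they used STAR, featureCounts and GRCm38.p4. Versions, annotation release and strand setting were not given in the sources used here. Groups follow the labels. No 2 replicates agreed within sampling noise (the closest pair had a chi-square of 4.58 per degree of freedom). Gene IDs were matched to GENCODE M21 (45143 of 46071). All columns were used.

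The tests ran under R (4.3.3). The filter filterByExpr left 13646 genes, TMM scaled the libraries, and a quasi-likelihood model with robust shrinkage and 1 mean for each group took in all 34 libraries (edgeR, version 4.0.16). Alternatives used DESeq2 (1.42.0) and limma (3.58.1). Tables were read with data.table (1.17.8). Annotation, promoters and figures were handled in Python (3.11.15), through pandas (2.3.3), numpy (2.4.6) and matplotlib (3.10.9). A gene was called at a Benjamini-Hochberg adjusted p under 0.05. The SE is the change over the square root of F. CPM per kb uses the union of GENCODE exons. Likeness used log2 CPM with a prior count of 2 among genes of average log2 CPM of at least 1. The procedure was tested on simulated data.

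The members and lists were chosen with earlier results of these data known. Named genes were the 8 members, from every list the called genes ranked first by adjusted p, at most 4 (with none called, the first alone), and the targeted genes. Some genes that this rule names are not reported here. Alternatives were DESeq2, limma-voom, DESeq2 size factors, library totals only, no filter, CPM above 1 in at least 3 libraries, a block for library runs (the 6 stretches of adjoining library numbers), the compared groups only, a control group of all 12 floxed libraries, omission of both doubtful libraries (labelled MIRKO 4 and MIGIRKO 6), and omission of each library in turn.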

Additional observations from a re-analysis of the deposited data

Results flagged for a closer look

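In 40 sets of libraries, 8 genes in the 5 groups of 4 to 7 libraries, 3 held a library whose gap to its neighbour was large against the range of its group. Chance marks about 1 in 20 such sets. Srebf1 was 117 CPM in IGFRlox 2, where the nearest of the other 3 libraries had 70.9 CPM. Insig1 was 43.1 CPM in MIGIRKO 4, where the nearest of the other 5 had 24.1 CPM. Lss was 7.78 CPM in IGFRlox 1, below the other 3 libraries, of which the nearest had 9.96 CPM.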

How the results depend on the processing

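With library totals only, with library runs as a block and with all 12 floxed libraries as control, 1, 1 and 3 of the 8 genes were called in the QKO change minus the MIGIRKO change instead of 0. The last is no separate test, because a control shared by both sides drops out and leaves QKO against MIGIRKO, with its 3 calls. With all 12 floxed libraries 1 was called in MIRKO (Srebf2, 0.50, adjusted p = 0.0307) and 1 in MIGF1RKO (Insig1, 0.70, adjusted p = 0.0289) instead of 0, and with the compared groups only 1 in MIGF1RKO. Leaving out 1 library gave 1 to 3 calls in MIGIRKO (1 without IRIGFRlox 1, 2 or 3 or MIGIRKO 5) and 0 to 1 in QKO (0 without Qlox 1 or Qlox 2). Insig1 in MIGIRKO was called in all 19 alternatives, at 0.55 to 1.30. Of single gene values, 43 of 527 under other settings and 60 of 648 with 1 library left out changed sign, all called in neither setting. Over the alternatives, all genes called ran from 9 to 2830 in MIRKO (170 as reported), 30 to 244 in MIGF1RKO (84), 3109 to 7002 in MIGIRKO (4603), 21 to 1084 in QKO (69), 113 to 3999 in QKO minus MIGIRKO changes (786, with 3999 under the shared control), 0 to 457 in MIGIRKO minus MIRKO changes (0), 3243 to 6649 in QKO against MIGIRKO (4116) and 15 to 163 among floxed groups (36). No paired analysis was possible because replicate numbers here only count the libraries of a group, and no littermate pairs are named. Depth limits Idi1, with 0 to 13 counts per library, and Sqle in QKO 5, with 1 count. Qlox has 2 libraries, which limits every QKO result.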

Other observations

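Fasn, the fatty acid synthase, had the largest fitted change among the 16 fatty acid genes in MIGIRKO, and it was named after its values were seen. It averaged 481 CPM in MIGIRKO and 84.9 in IRIGFRlox, a log2 change of 2.50 ± 0.61 (edgeR adjusted p = 0.00260). Elovl6, an elongase that acts after it and was named in the same way, averaged 14.3 and 3.59 CPM (1.99 ± 0.45, adjusted p = 0.00104). In QKO, Fasn differed from Qlox by 0.19 ± 0.63, and against MIGIRKO it was lower by 2.05 ± 0.43 (adjusted p = 0.000672). The 9 fat cell markers had a median log2 change of 2.55 in MIGIRKO, -0.54 in QKO and -2.38 in QKO against MIGIRKO. Their part in the changes of Fasn and Elovl6 was not tested.

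Idi2, a second isopentenyl diphosphate isomerase described in muscle and also named after its values were seen, had at most 2 counts in any library, and it was not among the genes tested.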
